A study of Homo sapiens with 6 samples.

Results

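The PCTAIRE kinases and their cyclin partners were examined as 6 genes, CDK14, CDK16, CDK17, CDK18, CCNY and CCNYL1, read by gene symbol from the count tables of 2 RNA-seq experiments in MDA-MB-231 cells. All 6 were present among the 41471 gene symbols of the CDK16 knockdown experiment and the 34157 of the rebastinib experiment. MDA-MB-231 is a human line derived from a triple-negative breast cancer. In the knockdown experiment the cells carried a lentiviral scramble shRNA, CDK16-sh1 or CDK16-sh2, and the lines were made by infection with a GFP-carrying vector and sorting. In the rebastinib (Reb) experiment the cells received DMSO as vehicle, Reb at 1 µM or Reb at 5 µM for 48 h. Each condition had 1 library, so no difference given here has a replicate check. The question asked of the first experiment is how the rest of the family behaved when CDK16 messenger RNA was lowered, and of the second how the family behaved under a compound proposed to keep CDK16 from binding cyclin Y. Reb also inhibits other kinases, among them ABL1 and TIE2, so it is not specific to the family.

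Cyclin-dependent kinases need a cyclin to be active. CDK16, CDK17 and CDK18 are the PCTAIRE kinases, named after the amino acids of the helix that meets the cyclin, and CDK14 is a close relative of the PFTAIRE type. CCNY encodes cyclin Y, which is held at membranes by a lipid anchor, and CCNYL1 encodes its close homologue. CDK14 with cyclin Y phosphorylates the Wnt co-receptor LRP6, and CDK16 with cyclin Y has been studied in vesicle transport, sperm formation and cell division.

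The 21 bases that encode the helix of the name are shown for the 4 kinases because this is the stretch the family is defined by. They were taken from the longest annotated coding sequence of each gene in GENCODE 29 (GRCh38) and are written in the sense of the transcript. CDK16 is the reference, and capitals in the others mark bases that differ from it.
CDK16: ccctgcaccgccatccgggaa
CDK17: ccctgcacAgcTatAAgAgaa
CDK18: ccctgcacTgccatccgAgaG
CDK14: ccTtTcacAgcTatcAgggaa
The stretch lies in exon 6 of CDK16 at chrX:47225081-47225101 on the plus strand and in exon 7 of CDK17 at chr12:96298870-96298890 on the minus strand. It lies in exon 6 of CDK18 at chr1:205526158-205526178 and in exon 5 of CDK14 at chr7:90790631-90790651, both on the plus strand. It differed from CDK16 at 5 bases in CDK17, 3 in CDK18 and 5 in CDK14. Over the whole coding sequence, 72.9% of aligned bases were identical between CDK16 and CDK18, 68.1% between CDK16 and CDK17, 65.96% between CDK16 and CDK14, and 71.2% between CCNY and CCNYL1. CCNY lies at chr10:35247025-35572669 and CCNYL1 at chr2:207711540-207761839, both on the plus strand. No stretch of 50 bases was shared between transcripts of any pair of the 6 genes.

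The primer pair with which the study measured CDK16 by qPCR is shown because the same transcript is counted here by sequencing.
CDK16 forward: tccgtcgtgtcagcctatct
CDK16 reverse: tcatgttccagtctgatctcctt
The forward primer matched 10 and the reverse 8 of the 23 annotated CDK16 transcripts. The forward primer spans the junction of exons 4 and 5 and the reverse primer lies in exon 6 at chrX:47225048-47225070, which gives a product of 157 bases on the spliced transcript. The forward primer had at least 8 mismatches to any annotated CDK14 or CDK18 transcript and 7 to CDK17. The reverse primer had at least 6 mismatches to CDK14, 5 to CDK18 and 3 to CDK17.

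Total counts ranged from 25838443 to 50303269 per library, and the 2 control libraries come from tables that the authors made separately. RPKM, the count scaled by gene length and by the library's total, is used for levels and allows genes to be compared within a library. Of markers of this mesenchymal-like line, VIM, CD44, MSN, CAV1, AXL and EGFR lay between 3.95 and 833 RPKM. Of genes expected to be low, ESR1, PGR and CDH1 did not exceed 0.174 RPKM, while ERBB2, EPCAM and GATA3 reached up to 6.54. PTPRC, PECAM1 and ALB, markers of blood, endothelium and liver, did not exceed 0.395 RPKM. Mitochondrial transcripts took 16.2% of the counts in CDK16-sh2 and 16.4% at 5 µM Reb, against 7.19% to 11.3% in the other 4 libraries.

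CDK16 had the highest level per length of the 6 genes in both control libraries, and CDK18 had the lowest. In the scramble library the levels were 19.1 RPKM for CDK16, 9.71 for CCNY, 8.47 for CCNYL1, 3.03 for CDK17, 1.19 for CDK14 and 0.00567 for CDK18. In the DMSO library the same order held, with 15.2 RPKM for CDK16, 9.11 for CCNY, 6.54 for CCNYL1, 6.22 for CDK17, 2.02 for CDK14 and 0.605 for CDK18. Neighbours in this order differed by more than the 95% counting interval of their ratio in every library, except CCNYL1 and CDK17 in DMSO, whose ratio was 1.05 (interval 0.984 to 1.12). These intervals, like all others given here, cover counting error only. With either hairpin and at 5 µM Reb, CCNY took the first place from CDK16.

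**Figure D1:**
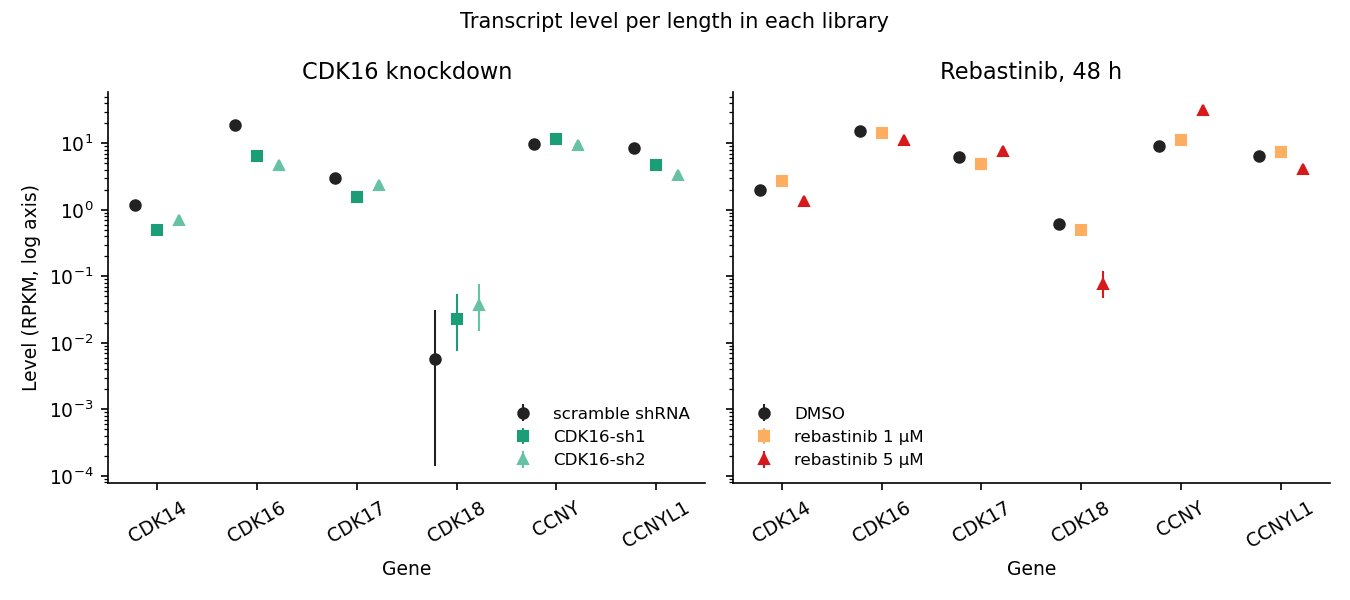
RPKM of each gene on a log axis in the 3 libraries of each experiment, with 95% Poisson counting intervals where they exceed the symbol. CDK16 is highest in the scramble and DMSO libraries, CCNY is highest at 5 µM Reb at 31.9 RPKM, and CDK18 is below 0.04 RPKM in all libraries of the knockdown experiment.

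CDK18, a PCTAIRE kinase studied in the response to replication stress, separated the cells of the 2 experiments. It had 1, 5 and 7 counts with the scramble shRNA, CDK16-sh1 and CDK16-sh2, and 208 counts in DMSO. The level relative to total counts in DMSO was 107 times that in the scramble library (counting interval 19.0 to 4240). CPM is the count scaled by the library total alone. Of the 15604 genes with at least 1 CPM in DMSO, 237 (1.52%) had at most 3 counts in the scramble library. CCNYL2, a cyclin Y-like relative, showed a similar gap with 2 counts in the scramble library and 115 in DMSO. CDK17 was at 2.06 times and CDK14 at 1.70 times the scramble level in DMSO, while CCNY (0.939), CCNYL1 (0.772) and CDK16 (0.796) differed less. Between these control libraries 21.7% of genes with at least 1 CPM in both were at least 2-fold apart. The shRNA vector, the sorting, the vehicle and the table all differ between the controls, whether the cells were of the same stock is not given in the sources used here, and these cannot be told apart, so each treatment was compared only within its experiment.

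Changes against the control of the experiment were computed as log2 fold changes after scaling the libraries by edgeR's TMM method, for genes whose mean was 1 CPM or more. These were 15295 genes including 5 of the 6 members in the knockdown experiment, where CDK18 did not pass, and 15655 genes including all 6 in the Reb experiment. A gene was counted as lower or higher at a change of at least 2-fold. In bulk RNA, fewer cells that express a gene and less RNA per cell cannot be told apart. In CDK16-sh1, CDK14 and CDK16 were lower, 2 of 5 members, where 6.86% of all genes were lower, and 0 were higher (4.33% of all genes). In CDK16-sh2, CDK16 and CCNYL1 were lower, 2 of 5, where 7.62% of all genes were lower, and 0 were higher (2.2% of all genes). CDK16 is the target of both hairpins, so its own place in these counts is the check of the labels and not a result about the family.

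At 1 µM Reb 0 of 6 members were lower (1.92% of all genes) and 0 higher (1.28%). At 5 µM CDK18 was lower, 1 of 6 (27.2% of all genes), and CCNY was higher, 1 of 6 (23.6% of all genes). The shares of members were therefore at or below the background at both doses.

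At this depth many genes differ by more than counting error, so a counting interval that leaves out 0 was read against its own background. With CDK16-sh1 4 of 5 members had an interval below 0 (CDK14, CDK16, CDK17 and CCNYL1; 37.3% of all genes) and 1 above 0 (CCNY; 36.9%). With CDK16-sh2 3 were below 0 (CDK14, CDK16 and CCNYL1; 32.6%) and 1 above 0 (CCNY; 35%). With Reb at 1 µM 3 were below 0 (CDK16, CDK17 and CDK18; 32.9%) and 3 above 0 (CDK14, CCNY and CCNYL1; 32%). At 5 µM 1 was below 0 (CDK18; 45.6%) and 3 above 0 (CDK16, CDK17 and CCNY; 42.6%). An interval that leaves out 0 is thus common here and does not set a member apart. The treated libraries of an experiment share 1 control library, so their values are given side by side and not as independent measurements.

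**Figure D2:**
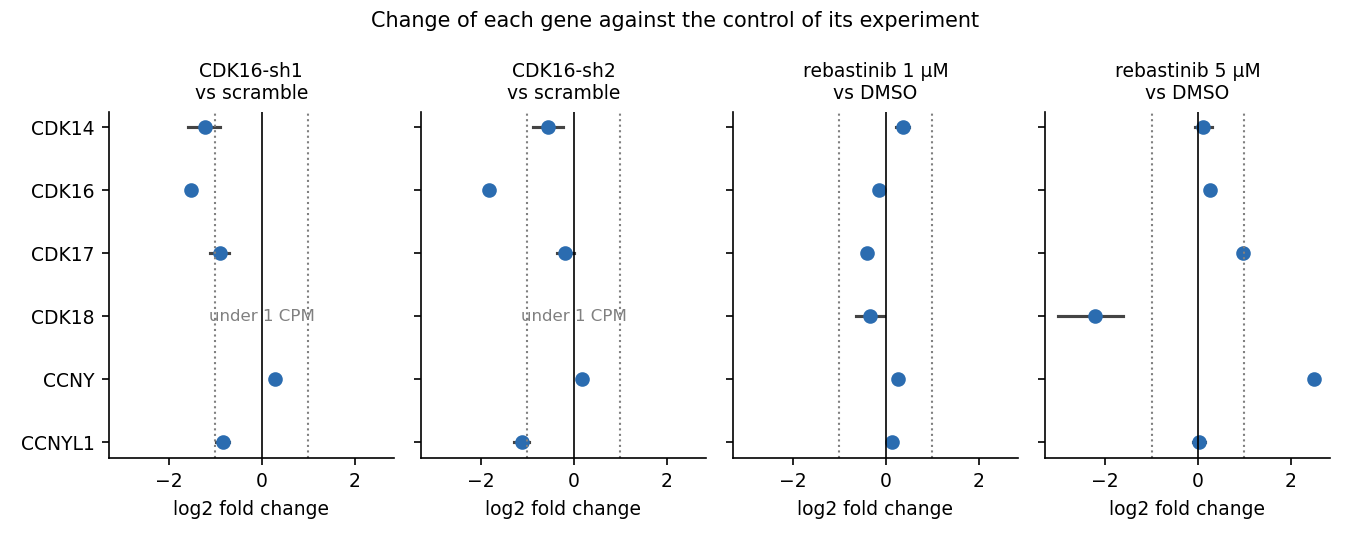
Log2 fold change of each gene in the 4 comparisons (points), with 95% counting intervals (lines) and dotted lines at 2-fold. CDK16 lies left of the 2-fold line with both hairpins, and CCNY (2.50) and CDK18 (−2.21) lie outside the lines at 5 µM Reb.

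Of the kinases, CDK16 was lower with both hairpins and was the least moved of the 4 at 1 µM. Its level was 19.1 RPKM with the scramble shRNA, 6.52 with CDK16-sh1 and 4.72 with CDK16-sh2. These are log2 fold changes of −1.52 and −1.82, and 1.73% and 1.55% of all genes were as low or lower. With Reb the level was 15.2 RPKM in DMSO, 14.3 at 1 µM and 11.4 at 5 µM. The log2 fold change was −0.14 at 1 µM (interval −0.20 to −0.08). At 5 µM it was 0.27 (0.20 to 0.34) with TMM scaling and −0.42 with library totals as the scale, so its direction at this dose depends on the scaling. When the trend of fold change on GC content and gene length was removed, it was −0.02 at 1 µM and 0.97 at 5 µM.

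CDK14, the PFTAIRE kinase of Wnt signalling, was past 2-fold below its control with CDK16-sh1 only. Its counts were 210 with the scramble shRNA, 107 with CDK16-sh1 and 133 with CDK16-sh2. The log2 fold changes were −1.23 (interval −1.60 to −0.91) and −0.55 (−0.88 to −0.23), and the log2 difference of CDK16-sh2 from CDK16-sh1 was 0.69 (0.32 to 1.08). In CDK16-sh1 the value was −0.82, short of 2-fold, when the trend of fold change on GC content and gene length was removed. The longest annotated transcript of CDK14 is 40.2% GC, against 57.0% for that of CDK16. In the Reb experiment CDK14 had 694 counts in DMSO, 908 at 1 µM and 349 at 5 µM. The log2 fold change was 0.36 at 1 µM (0.22 to 0.51). At 5 µM it was 0.12 (−0.07 to 0.30) with TMM and −0.57 with library totals. On the same strand, 201 exon bases of CDK14 are shared with CLDN12 (2.94% of its exon length) and 47 with CTB-13L3.1. CLDN12 had 670 counts with the scramble shRNA, 394 with CDK16-sh1 and 833 with CDK16-sh2, and CTB-13L3.1 had 91, 16 and 60. How reads in shared bases were counted is not given in the sources used here.

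CDK17, the PCTAIRE kinase best known from the brain, was within 2-fold of its control with both hairpins. It had 512 counts with the scramble shRNA, 331 with CDK16-sh1 and 419 with CDK16-sh2. The log2 fold changes were −0.90 (interval −1.11 to −0.70) and −0.18 (−0.37 to 0.01), and the log2 difference of CDK16-sh2 from CDK16-sh1 was 0.72 (0.51 to 0.94). The value in CDK16-sh1 was −0.52 with the GC and length trend removed. With Reb its counts were 2049 in DMSO, 1575 at 1 µM and 1863 at 5 µM. The log2 fold changes were −0.40 (−0.50 to −0.31) and 0.97 (0.88 to 1.06). At 5 µM CDK17 passed 2-fold with DESeq2 size factors (1.03) and was at 0.28 with library totals, so its position relative to the threshold was set by the scaling.

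CDK18 could be followed only in the Reb experiment. It had 208 counts in DMSO, 167 at 1 µM and 20 at 5 µM, which is 0.605, 0.495 and 0.0778 RPKM. The log2 fold change was −0.34 at 1 µM (interval −0.64 to −0.04) and −2.21 at 5 µM (−3.01 to −1.61). It was −2.86 with library totals and −1.40 with the GC and length trend removed, so it was at least 2-fold lower at 5 µM in each of these. In the knockdown experiment its ratio to the scramble library was 4.13 in CDK16-sh1 (interval 0.462 to 195) and 7.54 in CDK16-sh2 (0.968 to 340). Both intervals include 1, and a difference was not detectable at these counts.

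CCNY, the cyclin partner common to the kinases, was the member past 2-fold above its control at 5 µM Reb. It had 2633 counts in DMSO, 3231 at 1 µM and 6895 at 5 µM, or 9.11, 11.4 and 31.9 RPKM. The log2 fold change was 0.27 at 1 µM (interval 0.20 to 0.35) and 2.50 at 5 µM (2.43 to 2.56), a 5.64-fold difference that 4.50% of all genes reached or exceeded. With library totals it was 1.81. In the knockdown experiment CCNY had 1441 counts with the scramble shRNA, 2119 with CDK16-sh1 and 1514 with CDK16-sh2. The log2 fold changes were 0.28 (0.18 to 0.38) and 0.18 (0.07 to 0.28). In CDK16-sh2 library totals gave −0.02, so its direction with that hairpin is not settled.

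CCNYL1 was past 2-fold below its control with CDK16-sh2 only. Its counts were 1030 with the scramble shRNA, 698 with CDK16-sh1 and 438 with CDK16-sh2. The log2 fold changes were −0.84 (interval −0.98 to −0.70) and −1.12 (−1.29 to −0.96), and the log2 difference of CDK16-sh2 from CDK16-sh1 was −0.29 (−0.46 to −0.11). Between the hairpins CDK16 differed in the same direction (−0.30), and CDK14 and CDK17 in the other. In the Reb experiment it had 1549 counts in DMSO, 1731 at 1 µM and 730 at 5 µM. The log2 fold changes were 0.14 (0.04 to 0.24) and 0.02 (−0.11 to 0.15), and the value at 5 µM was −0.67 with library totals. CCNYL1 shared 15.2% of its 50-base stretches with other annotated transcripts, most of them with AC096772.1 (10.75%). Stretches were matched on either strand, so an antisense overlap counts as shared. Whether AC096772.1 and RP11-801F7.1 are 1 gene under 2 names was not tested. On the opposite strand, 564 exon bases of CCNYL1 overlap RP11-801F7.1. That antisense gene had 42 to 64 counts in the knockdown experiment and 10 to 55 in the Reb experiment, and whether the counting used strand is not given in the sources used here.

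**Figure D3:**
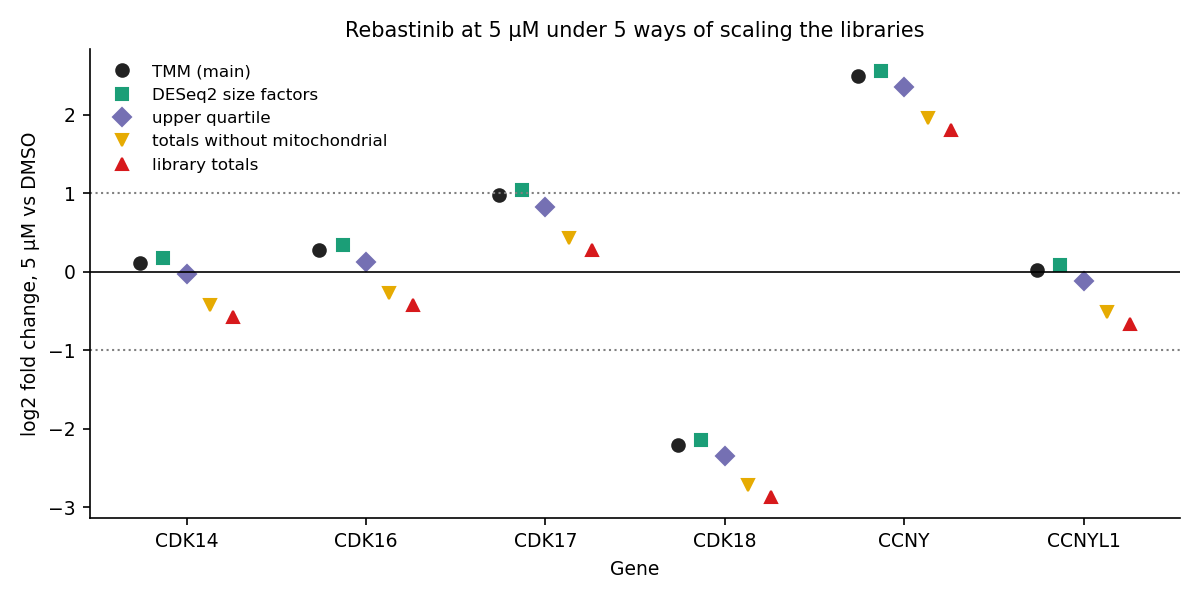
Log2 fold change of each gene at 5 µM Reb against DMSO under 5 ways of scaling the libraries, with dotted lines at 2-fold. CCNY stays above 1 and CDK18 below −1 under all 5, CDK14, CDK16 and CCNYL1 lie on both sides of 0, and CDK17 lies between 0.28 and 1.03.

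Leaving mitochondrial transcripts out of the library totals changed the log2 fold change of CCNY at 5 µM from 1.81 to 1.96 and that of CDK16 in CDK16-sh2 from −2.02 to −1.93. At 5 µM the median log2 fold change of all genes was −0.07 with TMM and −0.75 with library totals, and the members moved by 0.65 to 0.69 between these scalings. Relations within a library do not depend on that choice, though they can depend on a correction for GC content and gene length. CDK16 made up 81.9% of the summed RPKM of the 4 kinases with the scramble shRNA, 75.7% with CDK16-sh1 and 60.6% with CDK16-sh2, while CDK17 made up 12.97%, 18.4% and 29.9%. CDK16 was therefore still the most abundant of the 4 transcripts per length with either hairpin. The sum itself, scaled by library totals, was 23.3 RPKM with the scramble shRNA, 8.62 with CDK16-sh1 and 7.79 with CDK16-sh2, and with TMM scaling it was 22.1, 8.35 and 8.47.

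With Reb the share of CDK16 was 63.3% in DMSO, 64.0% at 1 µM and 55.9% at 5 µM, and that of CDK17 was 25.9%, 21.8% and 37.1%. With TMM scaling the log2 fold changes at 5 µM were 0.27 for CDK16 and 0.97 for CDK17. They were 0.97 and 0.74 with the GC and length trend removed. The direction in which CDK16 moved relative to CDK17 at this dose therefore depends on that correction. The summed kinase level was 24.1 RPKM in DMSO, 22.4 at 1 µM and 20.4 at 5 µM with library totals, and 20.8, 18.6 and 28.4 with TMM scaling, so its direction at 5 µM depends on the scaling. CDK18 made up 2.52% of the kinase sum in DMSO and 0.382% at 5 µM.

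CCNY was the more abundant of the cyclins per length in every library, by the narrowest margin in the scramble library and the widest at 5 µM Reb. CCNY made up 53.4% of the summed RPKM of CCNY and CCNYL1 with the scramble shRNA, 71.3% with CDK16-sh1 and 73.9% with CDK16-sh2. It made up 58.2% in DMSO, 60.5% at 1 µM and 88.6% at 5 µM. The ratio of CCNY to CCNYL1 per length was 1.15 (interval 1.06 to 1.24) with the scramble shRNA, 2.49 (2.28 to 2.71) with CDK16-sh1 and 2.83 (2.55 to 3.16) with CDK16-sh2. In the knockdown experiment the intervals of both hairpins lay above that of the control. In the Reb experiment the ratio was 1.39 (1.31 to 1.48) in DMSO, 1.53 (1.44 to 1.62) at 1 µM and 7.74 (7.17 to 8.37) at 5 µM, and only the intervals of DMSO and 1 µM overlapped.

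The ratio of CDK16 to CCNY per length, which compares the kinase studied with its cyclin, was above 1 in DMSO (1.67), in the scramble library (1.97) and at 1 µM Reb (1.26). It was below 1 with CDK16-sh1 (0.565), CDK16-sh2 (0.492) and at 5 µM Reb (0.357). With the hairpins the numerator was lower, with CDK16 at 6.52 and 4.72 RPKM against 19.1. At 5 µM the denominator was higher, with CCNY at 31.9 RPKM against 9.11.

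**Figure D4:**
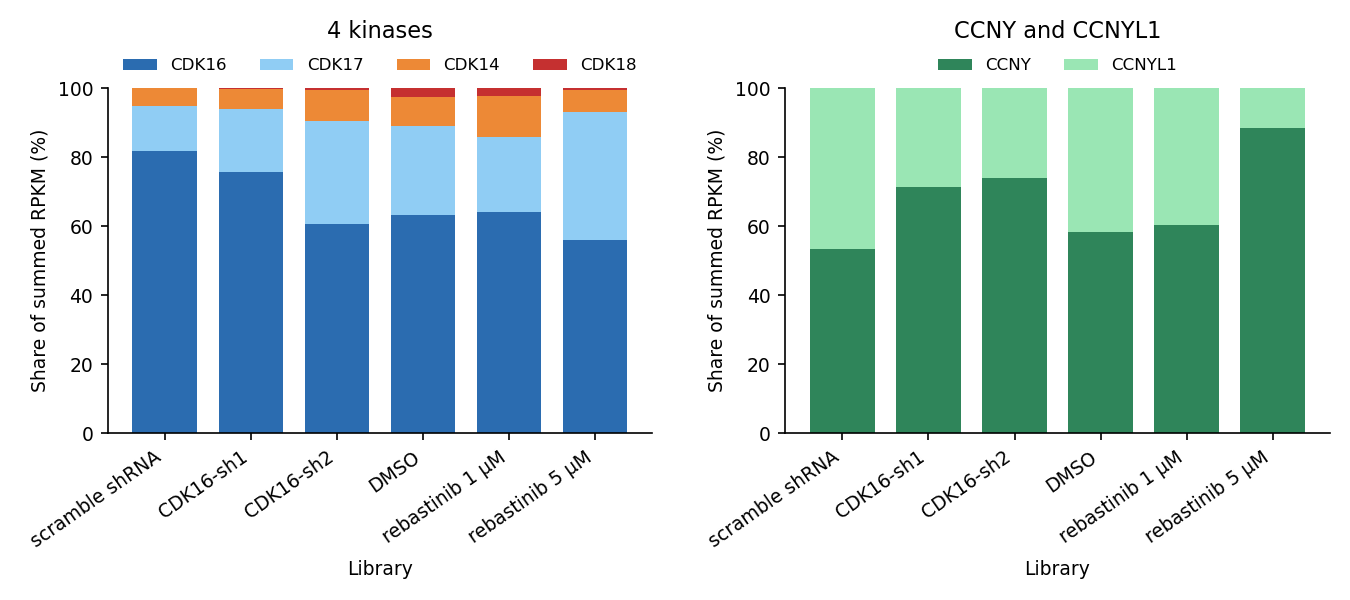
Share of the summed RPKM taken by each of the 4 kinases (left) and by CCNY and CCNYL1 (right) in each of the 6 libraries. CDK16 ranges from 81.9% in the scramble library to 55.9% at 5 µM Reb, and CCNY from 53.4% in the scramble library to 88.6% at 5 µM Reb.

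With both hairpins taken as 1 group against the scramble library, the spread was the difference between the hairpins. In this design edgeR's quasi-likelihood test, with an adjusted p up to 0.05 and 2-fold required, called 0 of 5 members and 0 of 15295 genes (0% of all genes) in either direction. There were 382 genes with an unadjusted p under 0.05, and DESeq2 also called 0. CDK16 had a log2 fold change of −1.66 with an unadjusted p of 0.000835 and an adjusted p of 0.804 in this edgeR fit. With both doses as 1 group the edgeR fit called 0 of 6 members, where 0.00639% of all genes were called lower and 0.0703% higher. The value for CCNY was 1.78 with an adjusted p of 1, and 228 genes had an unadjusted p under 0.05. DESeq2 called 4 genes lower and 14 higher, and 0 members. In both edgeR fits the genes with an unadjusted p under 0.05 were a share under 0.05 of those tested. The difference between hairpins or doses was the spread in these fits. This low share is therefore a sign neither of differences from the control nor of their absence.

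When dose was entered as a linear term instead, which assumes a trend in log2(dose + 1), edgeR called CCNY higher with a log2 change of 2.58 over the range of doses and an adjusted p of 0.00112. It was the only member called, where 13.3% of all genes were called higher and 11.1% lower. CDK18 had a change of −2.32 with an adjusted p of 0.0649 in the same edgeR fit. CDK17 had 1.06 with an adjusted p of 0.145. This fit has 1 residual degree of freedom. Its p-values rest on how far the libraries depart from the assumed trend and not on a spread between replicates.

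The nearest relatives outside the set were read beside it. CDK5, the neuronal CDK of the same branch, had 483 counts with the scramble shRNA, 717 with CDK16-sh1 and 477 with CDK16-sh2, and 397, 447 and 142 in DMSO, 1 µM and 5 µM. Its log2 fold change in CDK16-sh1 was 0.29 (interval 0.12 to 0.46). CDK15, the other PFTAIRE kinase, had at most 32 counts in any library and did not pass the filter on low counts. CCNYL2 had 115 counts in DMSO, 95 at 1 µM and 22 at 5 µM, a log2 fold change of −1.24 at the high dose (−2.01 to −0.61). CCNYL2 was at most 2 counts in the knockdown experiment, where no fold is given.

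Among the 17 other cyclin-dependent kinases, 16 passed the filter in each experiment. In CDK16-sh1 0 were past 2-fold (6.86% of all genes lower and 4.33% higher), and the median log2 fold change was −0.08 against 0.00 for all genes. CDK1, the mitotic kinase, was nearest to the threshold at −0.98. With library totals it was at −1.01, and 1 gene of the list was lower. In CDK16-sh2 1 was lower (7.62% of all genes), CDK12 (−1.24), a kinase of transcription elongation, and the median was 0.24 against 0.02. At 1 µM Reb 0 were past 2-fold (1.92% of all genes lower and 1.28% higher). At 5 µM 4 were lower (27.2% of all genes) and 0 higher (23.6%): CDK2 (−2.44), the S-phase kinase, CDK12 (−2.05), CDK19 (−1.11), a Mediator kinase, and CDK3 (−1.09). The median was −0.50 against −0.07. With library totals 10 were lower and 0 higher.

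Of the 26 other cyclins 24 passed in the knockdown and 25 in the Reb experiment. In CDK16-sh1 2 were lower (6.86% of all genes), CCNB3 (−1.35) and CCNT2 (−1.02), and 1 higher (4.33%), CCND2 (1.57), a D-type cyclin of G1. In CDK16-sh2 3 were lower (7.62% of all genes), CCNB3 (−2.12), CCNE2 (−1.73), a cyclin of the G1 to S transition, and CCND1 (−1.27). With that hairpin 0 were higher (2.2%). At 1 µM CCNB3 (−1.03) was lower (1.92% of all genes) and CCNI2 (1.39) higher (1.28%), the latter on 35 and 97 counts. CCNB3 was at −0.98, short of 2-fold, with library totals. At 5 µM 9 were lower (27.2% of all genes) and 5 higher (23.6%), with the largest values for CCNF (−4.14), CCNE2 (−3.80), CCNB1 (−3.57), the mitotic cyclin B1, and CCNA2 (−2.70). The 5 higher were CCNT2 (2.64), CCNK (2.28), CCNJ (1.74), CCNL1 (1.37) and CCNT1 (1.03), named after their values were seen. With library totals 12 were lower and 3 higher. The list medians were −0.06, −0.14, 0.03 and −0.31 in CDK16-sh1, CDK16-sh2, 1 µM and 5 µM, against 0.00, 0.02, 0.00 and −0.07 for all genes.

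The regulators were 14-3-3 proteins, which bind phosphorylated cyclin Y and CDK16, catalytic subunits of protein kinase A, which phosphorylates the PCTAIRE kinases, subunits of AMPK, which phosphorylates cyclin Y, and the CDK5 activators. Of 13 genes 12 passed in each experiment. In CDK16-sh1 2 were lower (6.86% of all genes), PRKACB (−1.47) of protein kinase A and PRKAA2 (−1.29) of AMPK. In CDK16-sh2 1 was lower (7.62% of all genes), PRKACB (−2.07), and 0 were higher with either hairpin (4.33% and 2.2% of all genes). At 1 µM 0 were past 2-fold (1.92% of all genes lower and 1.28% higher), with CDK5R1 (0.54) and PRKAA2 (0.34) the furthest from 0. The list medians were −0.36, −0.13 and 0.07 in these 3 comparisons, against −0.002, 0.02 and 0.002 for all genes.

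At 5 µM 5 regulators were higher and 1 was lower, where 23.6% and 27.2% of all genes were. The largest values were those of SFN (2.93) and YWHAB (1.95), both 14-3-3 proteins, CDK5R1 (2.66), the p35 activator, and PRKAA1 (2.19) of AMPK. The other 14-3-3 genes lay between −0.75 (YWHAZ) and 1.39 (YWHAE), and the 1 lower gene was PRKACB (−1.62). These 3 were named after their values were seen. The median of the list was 0.73 against −0.07 for all genes. With library totals 4 were higher and 3 lower, and the median was 0.04 against −0.75.

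The substrates and effectors were 10 genes, all of which passed in both experiments. PRC1 is the spindle protein whose phosphorylation the study links to CDK16, and RNA levels do not measure phosphorylation. Its log2 fold changes were −0.67 in CDK16-sh1, −0.13 in CDK16-sh2, −0.05 at 1 µM and 0.28 at 5 µM. Its value at 5 µM was −0.41 with library totals, and it was within 2-fold of its control in each of these. LRP6, the Wnt co-receptor phosphorylated by CDK14 with cyclin Y, was at −0.54 and −1.01 with the hairpins, and at 0.23 and 2.24 with Reb. LRP6 and CCNY were both at least 2-fold higher at 5 µM, as were 23.6% of all genes, and LRP6 was at 1.55 with library totals. With CDK16-sh1 and CDK16-sh2 CCNY was at 0.28 and 0.18, opposite in sign to LRP6. CDK14 was at 0.12 at 5 µM.

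RB1, the retinoblastoma protein, was at −1.33 in CDK16-sh1, −0.64 in CDK16-sh2, −0.08 at 1 µM and −1.39 at 5 µM. CDKN1B, which encodes the inhibitor p27, was at −0.06 and 0.18 with the hairpins and at −0.64 and −0.71 with Reb. Over the list, 2 genes were lower in CDK16-sh1 (6.86% of all genes), SEC23A (−1.33), a component of vesicle coats, and RB1. In CDK16-sh2 1 was lower (7.62%), LRP6, while SEC23A was at 0.21 (interval 0.11 to 0.31), opposite in sign to CDK16-sh1. At 1 µM 0 were past 2-fold (1.92% of all genes lower and 1.28% higher), with CDKN1B furthest from 0. At 5 µM 3 were lower (27.2% of all genes), among them RB1 and LRP5 (−1.03), and 1 higher (23.6%), LRP6. The list medians were −0.60 and −0.02 with the hairpins and 0.05 and −0.28 with Reb, against −0.002, 0.02, 0.002 and −0.07 for all genes. With library totals at 5 µM 5 were lower and 1 higher.

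**Figure D5:**
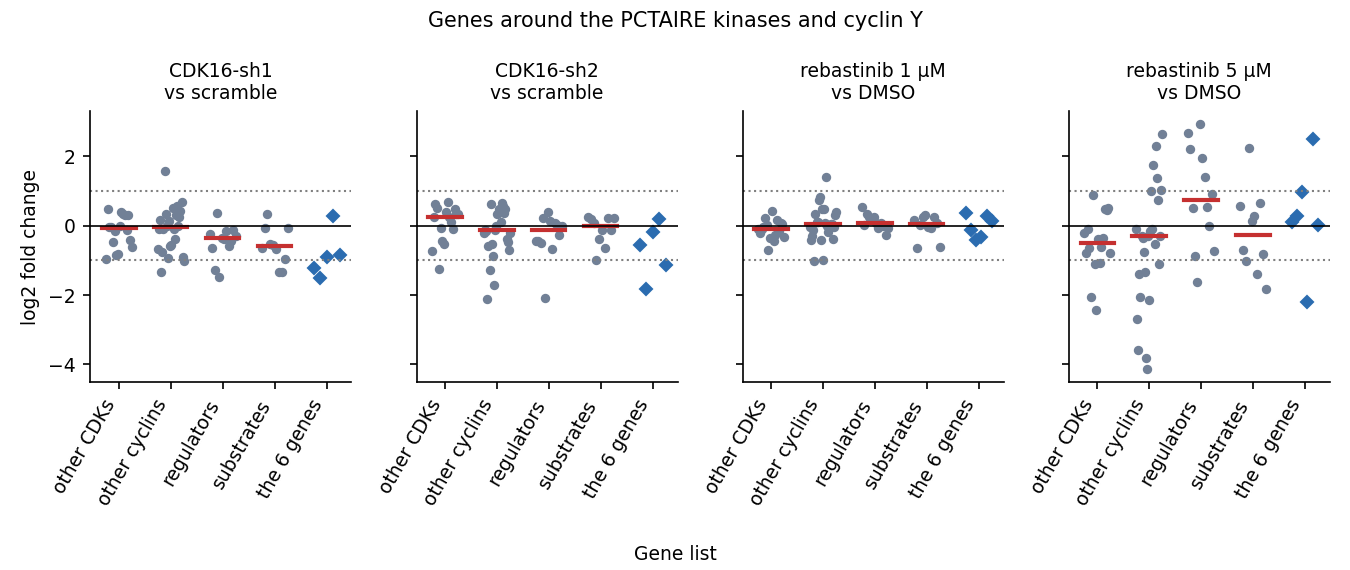
Log2 fold change of every gene that passed the filter in the 4 lists of related genes (grey points, red bar at the median) and of the 6 genes of the family (blue diamonds) in the 4 comparisons, with dotted lines at 2-fold. At 5 µM Reb the other cyclins reach from −4.14 (CCNF) to 2.64 (CCNT2), CCNY lies at 2.50, and at 1 µM the family stays within the dotted lines.

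The members did not share 1 pattern over the 4 comparisons. As a measure of likeness, the Euclidean distance between the 4 log2 fold changes was taken over the 10541 genes whose mean was 5 CPM or more in both experiments. Among members the closest pair was CDK14 and CCNYL1 (0.742), followed by CDK16 and CCNYL1 (1.04). CCNY was 2.08 from CDK17 and 3.51 from CDK16. The median distance from CDK16 to all genes was 2.79 and from CCNY 2.73, so CCNY was further from CDK16 than the median gene was. The values of CDK16 with the hairpins (−1.52 and −1.82) are the lowering of their own target. Distances from CDK16 are therefore not a result about the family.

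The genes most like CDK16 were TMEM263 (distance 0.356), ROCK2 (0.408) and MGAT5 (0.502), and those most like CCNY were TAF9 (0.207), TMEM167B (0.214) and MKLN1 (0.235). CDK14 lay nearest RP11-144G6.12 (0.155), TFRC (0.214) and SSX2IP (0.222). CDK17 lay nearest FAM117A (0.190), PNPLA8 (0.221) and GNB1 (0.233). CCNYL1 lay nearest GCNT1 (0.186), PTPRJ (0.188) and SGO2 (0.226). CDK18 was below the minimum level for this measure. Each distance rests on 4 values, of which pairs share a control, and is a description without a test.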

How the data were processed

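Stranded mRNA libraries were made from total RNA and sequenced on a HiSeq X 10. Per the labels, reads were trimmed with Trimmomatic and counted with featureCounts of Subread 1.5.1 on GRCh38. The aligner and the strand setting of the counting are not given in the sources used here. The deposited tables hold the authors' whole-number read count per gene symbol in each library, without normalization. RPKM values, also deposited, equalled count over gene length and library total in every case. Some symbols, 28 and 27, had been turned into dates, none of them a member.

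TMM-scaled CPM with a prior count of 2 gave the log2 fold changes (edgeR 4.0.16, R 4.3.3), for genes whose mean was 1 CPM or more. For an interval, the 95% Clopper-Pearson bounds of 1 library's share in a pair's counts were turned into a ratio. No molecular identifiers were used, so reads are not independent molecules. With 1 library per condition the edgeR quasi-likelihood test (Benjamini-Hochberg adjustment) could take treated libraries only together, and its p-values measure the spread between hairpins or doses. DESeq2 1.42.0 was run as an alternative. No shared sample block was used.

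Named genes are the 6 members, their nearest relatives CDK15, CDK5, CCNYL2 and CCNYL3 (CCNYL3 was not analysed here), up to 4 genes per list and comparison with the largest change past 2-fold (or the largest 2 where 0 were), PRC1, RB1, CDKN1B and LRP6, and the 3 genes most like each member. The values of 1 gene of the lists are not reported here. The members and lists were chosen with earlier results of these data known. Coding sequences, exon numbers and shared 50-base stretches come from GENCODE 29, and primers from the study's supplement. Alternatives were other scalings, library totals, the authors' RPKM with 0.1 added, a prior count of 0.5, no filter, a 1.5-fold threshold and removal of the trend on GC content and length.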

Additional observations from a re-analysis of the deposited data

How the results depend on the processing

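Among the numbers of members past 2-fold or called and the CDK16 values with the hairpins, 11 moved under an alternative. Among the values of single genes and shares, 53 moved and 1 became stronger. The cause was not tested. In CDK16-sh1 the number of members at least 2-fold lower was 1 with the GC and length trend removed and 4 at a 1.5-fold threshold, and the number higher was 1 without the filter on low counts, which admits CDK18. In CDK16-sh2 the number higher was also 1 without the filter. The log2 fold change of CDK16 in CDK16-sh1 was −1.68 with the trend removed, and in CDK16-sh2 −2.02 with library totals, −1.93 with totals without mitochondrial transcripts and −1.997 by the authors' RPKM. At 5 µM Reb the number of members higher was 2 with DESeq2 size factors and 2 at a 1.5-fold threshold. The number of members called with dose as a linear term was 1. The other 86 values of the first set stayed the same. No value past 2-fold changed sign, but those of CDK14, CDK16 and CCNYL1 at 5 µM (−0.57, −0.42 and −0.67 with library totals) and of CCNY in CDK16-sh2 (−0.02) did. Leaving out a treated library leaves 1 library against 1 and gives the single comparisons above, with no test. No paired analysis was possible because each group has 1 library and the groups share fewer than 2 replicate numbers. Low counts limit CDK18 in the knockdown experiment, where it had 1 to 7.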
